A study of Drosophila melanogaster with 16 samples.

Results

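Neuroblasts are the neural stem cells of the *Drosophila* CNS. The 9 genes described here mark these cells, run their asymmetric divisions or set their age. They are *dpn*, *ase*, *wor*, *mira*, *insc*, *pros*, *brat*, *Imp* and *Syp*, a list of symbols drawn up without a threshold on these values, and all 9 were found among the 17698 genes in the count data. RNA was sequenced from whole larval CNSs of 4 genotypes with 4 replicates each, 20 CNSs per replicate, from wandering larvae late in the third instar kept at 25 °C. The control carried the driver alone (nsybGal4/+). TFAM overexpression (o/e), which causes mitochondrial stress, was nsybGal4>UAS-TFAM3M, and in a further genotype ATF4 was knocked down on top of it (nsybGal4>UAS-TFAM3M, UAS-ATF4 RNAi). The last genotype was labelled ATF4 overexpression, here ATF4 o/e (nsybGal4>UAS-ATF4-HA). All 4 genotypes therefore carried nsybGal4, whose promoter comes from a synaptic vesicle gene of neurons, so that the transgenes were directed at neurons and not at neuroblasts. The age of the larvae beyond their stage is not given in the sources used here, and nothing states whether the 4 replicates of a genotype came from separate crosses, so p-values measure only the spread between these samples.

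A neuroblast divides into another neuroblast and a smaller ganglion mother cell, which in turn divides to give neurons or glia. Transcription factors such as Dpn, Ase and Wor keep the stem cell state, Insc orients the spindle, and Mira carries Pros and Brat into the daughter, where they end self-renewal. The RNA-binding proteins Imp and Syp act in opposition, Imp being high in young neuroblasts and Syp in old ones, and both are also made in neurons. Neuroblasts are a small share of the cells of a late larval CNS, and in RNA from whole tissue fewer cells of a type and less RNA per cell cannot be told apart.

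The libraries held between 18215062 and 24778270 counts. The spread between replicates exceeded counting noise, with a chi-square of 8.64 to 368 per degree of freedom. TFAM had 97.4 ± 29.9 CPM (counts of a gene scaled to the size of its library; SD, n = 4) in control, 536 ± 115 CPM in TFAM o/e, 538 ± 113 CPM with ATF4 RNAi added and 80.0 ± 9.69 CPM in the libraries labelled ATF4 o/e. The gene for ATF4, *crc*, had 204 ± 17.3, 202 ± 29.8, 155 ± 5.56 and 185 ± 4.33 CPM in the same order (SD, n = 4 each), so that it was not raised in the libraries labelled ATF4 o/e, which are called by that label throughout. *crc* shares 73.5% of its exon length with CG46314 on the same strand, so its counts are uncertain. The libraries also differed in how the level of a gene went with its length. The slope of log2 CPM on log2 exon length, over 8608 genes, was between 0.202 and 0.786, and it was lowest in control replicate 3 (0.202) and TFAM o/e replicate 2 (0.439). The slope comes from the same counts as the levels. The values of the genes that these libraries moved most are also given without them. The mean slope was 0.550 ± 0.243 in control and 0.652 ± 0.143 in TFAM o/e (SD, n = 4 each). It was 0.599 ± 0.106 with ATF4 RNAi added and 0.701 ± 0.066 in the libraries labelled ATF4 o/e (SD, n = 4 each). Slope and genotype thus went partly together, so fits with the slope as a covariate do not fully separate slope from genotype.

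The 5 genes of stem cell identity and division, longer than 58.1% (*dpn*) to 83.2% (*insc*) of coding genes, were shorter than the other 4, which are among the longest coding genes of the fly. Positions are those of BDGP release 6, the assembly also called dm6. *dpn* (FBgn0010109) lies on 2R from 8228971 to 8232330 and has 2036 bp of exons, *ase* (FBgn0000137) on X from 460747 to 463176 with 2430 bp, and *wor* (FBgn0001983) on 2L from 15423297 to 15425580 with 2222 bp. *mira* (FBgn0021776) lies on 3R from 19931799 to 19935120 with 3322 bp and *insc* (FBgn0011674) on 2R from 20821262 to 20836028 with 3887 bp. *pros* (FBgn0004595) spans 3R from 11328480 to 11407627 and has 24892 bp of exons, longer than 99.9% of coding genes. *brat* (FBgn0010300; 2L from 19133816 to 19179758) has 12788 bp, *Imp* (FBgn0285926; X from 10787869 to 10824277) 13650 bp and *Syp* (FBgn0038826; 3R from 20756729 to 20810726) 11225 bp. The shortest of these 4, *Syp*, is still longer than 98.6% of coding genes.

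Exons that belong to more than 1 gene make some of these counts uncertain. Of the exon length of *dpn*, 59.3% is shared with asRNA:CR44275 on the other strand, which itself held between 5 and 19 counts per library. Of *Imp*, 14.3% is shared with lncRNA:CR45204 on the same strand, which held 0 counts in every library, and of *insc* 9.24% is shared with *sktl* on the same strand, which had a median of 58.1 CPM. All 1955 bp of lncRNA:CR45204 lie in exons of *Imp*, so with 0 counts no read from that stretch was counted on the lncRNA. The authors state default settings for the counting, but its strand setting and annotation are not given in the sources used here. Whether reads from the stretch in *Imp* were counted on *Imp*, or those from the other stretches on either gene, was not tested.

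Per kilobase of exon, the differentiation factors and *Syp* were the most abundant of the 9 and *dpn* the least. The medians over the 16 libraries were 143 FPKM (CPM per kilobase of exon) for *brat*, 127 for *Syp*, 126 for *pros*, 81.3 for *mira*, 48.7 for *wor*, 38.0 for *ase*, 13.9 for *Imp*, 9.13 for *insc* and 5.79 for *dpn*. The order of *mira* over *wor*, *wor* over *ase*, *ase* over *Imp*, and *insc* over *dpn* held in all 16 libraries. *pros* was above *mira* and *Imp* above *insc* in 15 of 16, the exception to both being control replicate 3. *brat* was above *Syp* in 14 of 16 and *Syp* above *pros* in 9 of 16, and the ranges of these 3 over the libraries overlapped, so that they cannot be put in order. The place of *dpn* depends on its shared exons. If its reads came solely from the 829 bp that it shares with no other gene, its median would be 14.2 FPKM, near that of *Imp*, for which the same reckoning gives 16.2 FPKM, and above that of *insc* at 10.1 FPKM.

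**Figure D1:**
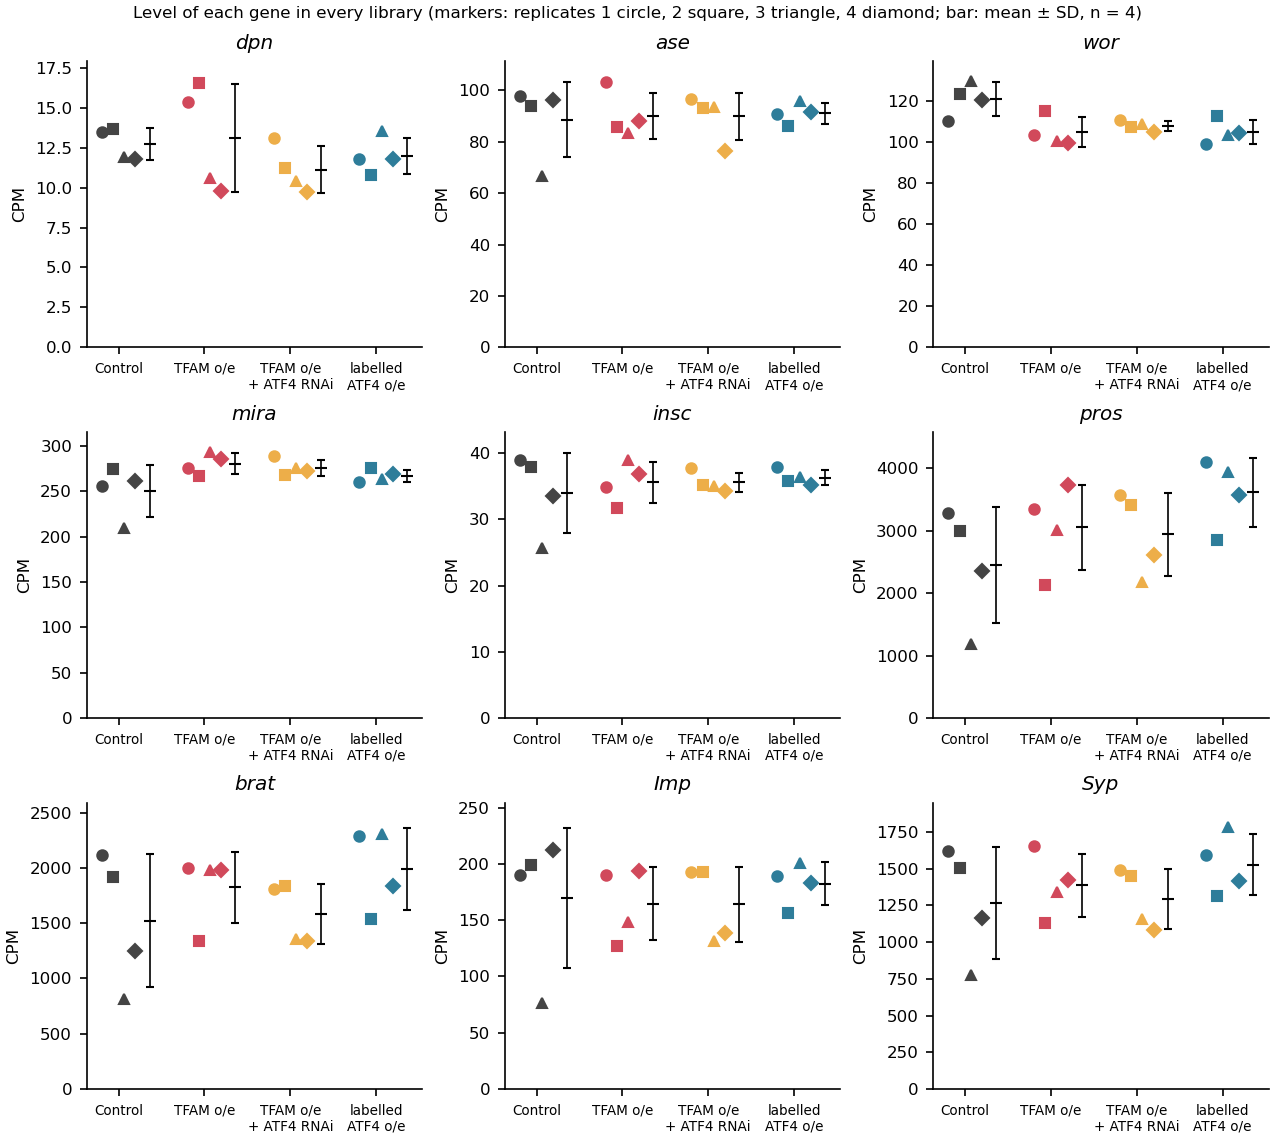
Level of the 9 genes in each of the 16 libraries, in CPM on axes that start at 0, with 1 marker shape per replicate number and the mean ± SD (n = 4) beside each genotype. *wor* stays between 99.0 and 130 CPM, whereas *pros* runs from 1194 to 4098 CPM, with control replicate 3 lowest.

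None of the 9 genes passed the test in any of the 4 comparisons, and all 9 passed the filter on low counts in each. A gene was called at a Benjamini-Hochberg adjusted p under 0.05 in edgeR's quasi-likelihood test, with a change of 1.2-fold or more up or down. Between control and TFAM o/e, 0 of the 9 were called, where 0.299% of the 9355 genes tested were called, and their adjusted p was between 0.880 and 0.968. Between control and the libraries labelled ATF4 o/e, 0 of the 9 were called, against 0.765% of 9410 genes tested, with adjusted p between 0.530 and 0.895. Between TFAM o/e and TFAM o/e with ATF4 RNAi, 0 of the 9 were called, against 0.551% of 9436 genes, with adjusted p between 0.989 and 0.998. Between control and TFAM o/e with ATF4 RNAi, 0 of the 9 were called, against 0.563% of 9421 genes, with an adjusted p of 1.000 for each. DESeq2, with or without its prior, called 0 of the 9 in each comparison as well. The share called was under 1% of all genes in each comparison, so that a count of 0 in 9 does not set the neuroblast genes apart from other genes.

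The same held for separation between replicates and for unadjusted p-values. No gene of the 9 had all libraries of a genotype above, or below, all those of the other in any comparison. Such separation was seen for 3.42% of genes between control and TFAM o/e, 6.95% between control and the libraries labelled ATF4 o/e, 4.09% between TFAM o/e and the knockdown, and 3.51% between control and the knockdown. An unadjusted p under 0.05 was found for 0, 1, 0 and 0 of the 9 in this order, against 4.34%, 8.91%, 5.81% and 4.70% of the genes tested. The 1 gene was *wor*, lower in the libraries labelled ATF4 o/e. With the length slope as a covariate the counts were 1, 2, 0 and 2, against 10.5%, 13.6%, 12.4% and 13.2% of the genes tested. They were *wor* in the 3 comparisons with control, *pros* in the libraries labelled ATF4 o/e and *dpn* in the knockdown against control, none past the threshold after adjustment. The median log2 fold change of the 9 was 0.06, 0.09, -0.02 and 0.02, beside -0.01, -0.02, 0.00 and -0.02 over the genes tested.

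The test left room for moderate changes, more so for the long genes. The 95% intervals of the log2 fold changes reached from -0.74 to 1.21 over all 9 genes and 4 comparisons. For *wor* between control and TFAM o/e, the interval allowed a fold change between 0.741 and 1.01. For *pros* between control and the libraries labelled ATF4 o/e, it allowed a fold change between 0.929 and 2.31. Absence of a call therefore does not show that a gene was unchanged.

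**Figure D2:**
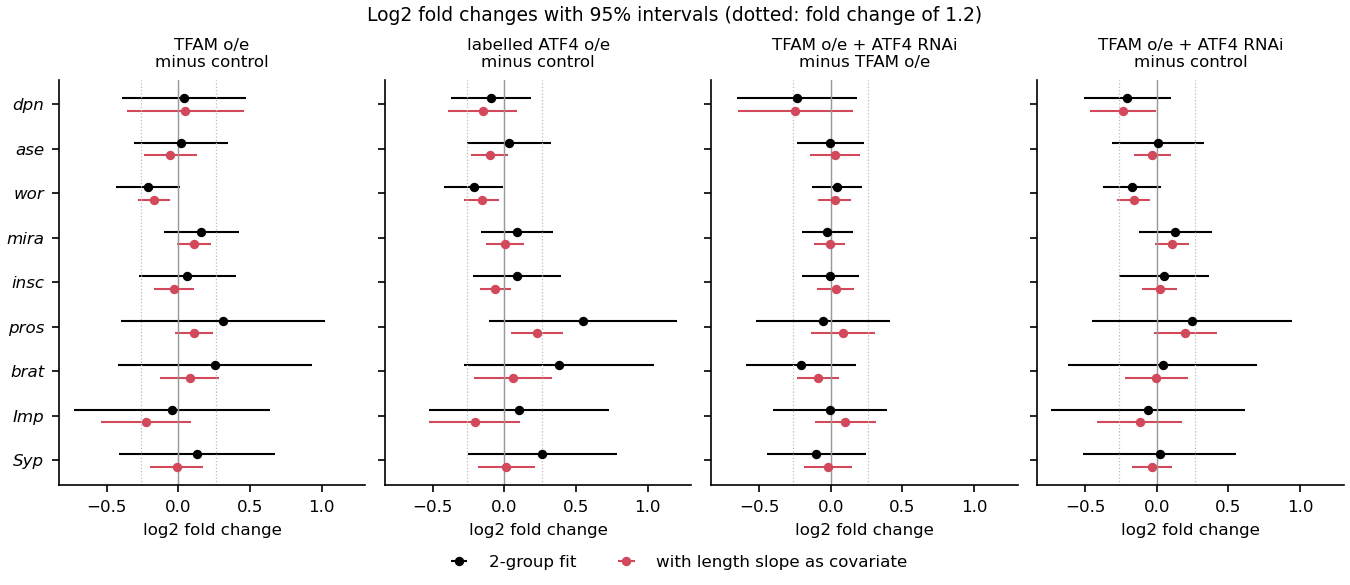
Log2 fold changes of the 9 genes in the 4 comparisons with 95% intervals, from the fit of 2 genotypes (black) and from the same fit with the length slope of each library as a covariate (red). Dotted lines mark a fold change of 1.2. The intervals of *pros*, *brat*, *Imp* and *Syp* are the widest in the 3 comparisons with control and narrow with the covariate, and *wor* lies below 0 in the 3 comparisons with control.

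*wor*, which encodes a zinc finger protein of the Snail family, had the smallest spread of the 9 genes within genotypes before the length slope was taken into account, and its mean was highest in control. It had 110, 123, 130 and 120 CPM in control replicates 1 to 4. In TFAM o/e it had 104, 115, 100 and 99.5 CPM, with ATF4 RNAi added 111, 107, 109 and 105 CPM, and in the libraries labelled ATF4 o/e 99.0, 113, 103 and 104 CPM. Of the control libraries, replicates 2, 3 and 4 were above all 12 others, and replicate 1 lay among them. The means were 121 ± 8.23, 105 ± 7.18, 108 ± 2.47 and 105 ± 5.69 CPM (SD, n = 4 each).

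Against control, the log2 fold change of *wor* was -0.21 in TFAM o/e (standard error, SE, 0.10, adjusted p = 0.880 in edgeR). It was -0.18 with ATF4 RNAi added (SE 0.09, adjusted p = 1.000 in edgeR) and -0.21 in the libraries labelled ATF4 o/e (SE 0.09, adjusted p = 0.530 in edgeR). None of these differences passed the test, and all were below a fold of 1.2. The 3 comparisons use the same 4 control libraries, so that they are not independent of each other. Between TFAM o/e and the knockdown, which share no library with control, the log2 fold change was 0.04 (SE 0.08, adjusted p = 0.989 in edgeR). With the length slope as a covariate, the values against control were -0.17, -0.16 and -0.16 in the order given, with adjusted p = 0.209, 0.191 and 0.242 in edgeR's test. Their 95% intervals, not adjusted for the number of genes, reached from -0.28 to -0.06, from -0.28 to -0.05 and from -0.28 to -0.04. These were the smallest adjusted p-values that *wor* reached in any setting tried, and they too missed the threshold.

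*mira* encodes the adaptor that carries fate determinants to the basal side of the dividing neuroblast. It had 256, 275, 209 and 261 CPM in control, 276, 267, 293 and 286 CPM in TFAM o/e, 289, 268, 275 and 272 CPM with ATF4 RNAi added, and 260, 276, 264 and 269 CPM in the libraries labelled ATF4 o/e. Control replicate 3 stood below all other libraries. The log2 fold change between control and TFAM o/e was 0.16 (SE 0.12, adjusted p = 0.880 in edgeR), and without control replicate 3 and TFAM o/e replicate 2 it was 0.12 (adjusted p = 0.587). Leaving out its lowest library brought the range of *mira* over the libraries from 1.40-fold to 1.15-fold.

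*insc*, whose protein links the polarity complex to the spindle, had between 25.6 and 39.0 CPM. Its lowest value was again that of control replicate 3, and the next was 31.7 CPM in TFAM o/e replicate 2. Its log2 fold changes were 0.06, 0.09, 0.00 and 0.05 in the order of the comparisons above.

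*ase*, a proneural factor made in type I but not in type II neuroblasts, had between 66.9 and 103 CPM. Control replicate 3 held 66.9 CPM against 94.0 to 97.7 CPM in the other control libraries. The log2 fold changes of *ase* were 0.02, 0.03, 0.00 and 0.01, and its standard errors were between 0.10 and 0.14.

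*dpn*, a transcriptional repressor and target of Notch found in all neuroblasts, was the gene with the fewest counts, between 201 and 362 per library. It had 13.5, 13.7, 11.9 and 11.8 CPM in control and 15.4, 16.6, 10.6 and 9.81 CPM in TFAM o/e. The TFAM o/e libraries thus fell on both sides of control, with replicates 1 and 2 above and 3 and 4 below. With ATF4 RNAi added *dpn* had 13.1, 11.2, 10.4 and 9.72 CPM, and in the libraries labelled ATF4 o/e 11.8, 10.8, 13.6 and 11.8 CPM. Its log2 fold change was 0.04 between control and TFAM o/e (SE 0.19) and -0.21 between control and the knockdown (SE 0.13), neither past the test in edgeR (adjusted p = 0.952 and 1.000).

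The genes of differentiation varied far more between replicates. *pros*, which encodes the homeodomain protein that stops self-renewal in the ganglion mother cell, had 3280, 2995, 1194 and 2351 CPM in control and 3340, 2131, 3013 and 3729 CPM in TFAM o/e. With ATF4 RNAi added it had 3570, 3416, 2172 and 2615 CPM, and in the libraries labelled ATF4 o/e 4098, 2852, 3938 and 3578 CPM. The 4 genotypes overlapped throughout. The log2 fold change against control was 0.31 in TFAM o/e (SE 0.31, adjusted p = 0.880 in edgeR) and 0.55 in the libraries labelled ATF4 o/e (SE 0.29, adjusted p = 0.530 in edgeR). With the length slope as a covariate these values were 0.11 and 0.23, with adjusted p = 0.584 and 0.250 in edgeR's test. Without control replicate 3 and TFAM o/e replicate 2 they were 0.24 and 0.33, with adjusted p = 0.590 and 0.497, and without control replicate 3 alone 0.09 and 0.33.

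*brat*, whose protein represses translation of self-renewal factors in the daughter cell, had 2113, 1922, 816 and 1244 CPM in control. TFAM o/e replicates 1, 3 and 4 lay together at 1997, 1977 and 1984 CPM, and replicate 2 stood at 1339 CPM. With ATF4 RNAi added *brat* had 1808, 1833, 1358 and 1335 CPM, and in the libraries labelled ATF4 o/e 2287, 1539, 2307 and 1836 CPM. Its log2 fold changes were 0.26, 0.38, -0.20 and 0.04 in the order of the comparisons above, with standard errors between 0.17 and 0.30. Without control replicate 3, they were 0.06 in TFAM o/e, 0.18 in the libraries labelled ATF4 o/e and -0.15 in the knockdown against control. Without TFAM o/e replicate 2, they were 0.40 in TFAM o/e against control and -0.33 in the knockdown against TFAM o/e. With the length slope as a covariate the 4 values were 0.08, 0.06, -0.09 and 0.00.

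**Figure D3:**
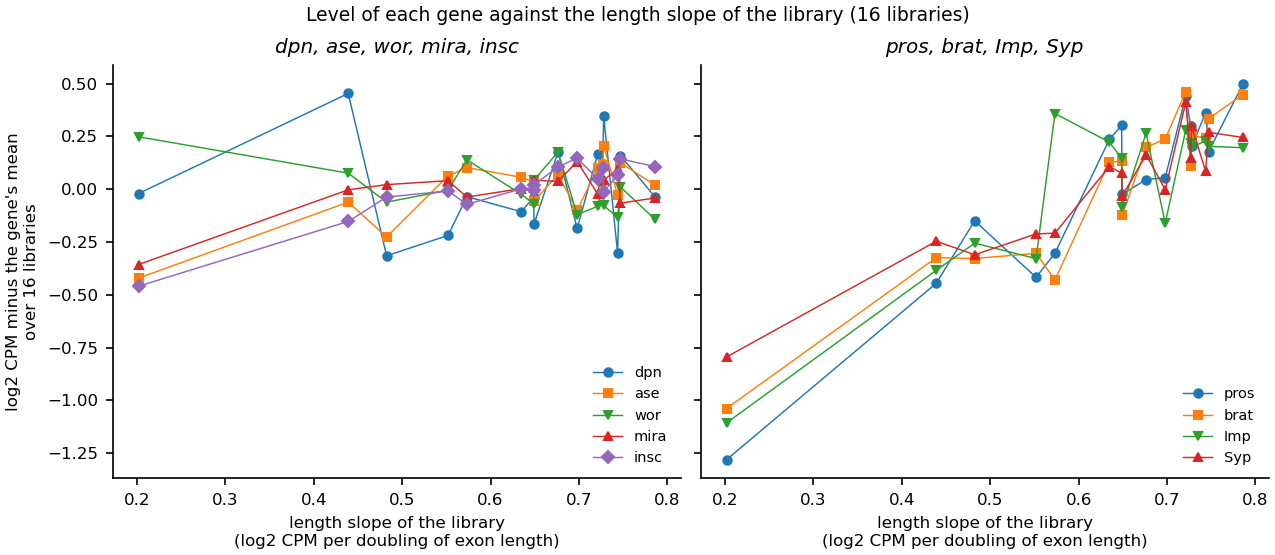
Log2 CPM of each gene, less its mean over the 16 libraries, against the length slope of the library, with points of a gene joined in order of slope. *pros*, *brat*, *Imp* and *Syp* climb together from the library with slope 0.202, control replicate 3, whereas *wor* is highest there.

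The spread of the long genes went with the length slope of the libraries. For each rise of 0.1 in the slope, log2 CPM was higher by 0.26 for *pros*, 0.24 for *brat*, 0.24 for *Imp* and 0.18 for *Syp*, as a line fitted to the 16 libraries, each taken as a difference from its genotype's mean. The values of *pros*, *brat* and *Imp* exceeded those of 98.3% of genes or more, and that of *Syp* exceeded 92.0%. The same value was 0.09 for *insc*, 0.09 for *ase*, 0.05 for *mira*, 0.01 for *dpn* and -0.04 for *wor*, beside a median of 0.00 over the genes. With this line removed, the SD of log2 CPM within genotypes went from 0.43 to 0.14 for *pros*, from 0.39 to 0.15 for *brat*, from 0.41 to 0.20 for *Imp* and from 0.30 to 0.12 for *Syp*. The median over the genes went from 0.21 to 0.10. That of *dpn* did not fall (0.21 and 0.22), and *wor* had the smallest SD of the 9 before removal (0.08), at the 5.32 percentile of genes. The slope is itself a trend with exon length, so the ranks of the long genes partly follow from its definition. Slopes and levels come from the same counts, and what sets the slope was not tested.

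Control replicate 3, the library of lowest slope, was the lowest of all 16 for *ase*, *mira*, *insc*, *pros*, *brat*, *Imp* and *Syp* and the highest for *wor*. With this library the highest level of *pros* was 3.43-fold its lowest, and without it 1.92-fold. For *brat* the range went from 2.83-fold to 1.85-fold, for *Imp* from 2.76-fold to 1.67-fold and for *Syp* from 2.31-fold to 1.65-fold.

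*Imp* and *Syp* moved together across the libraries. *Imp* had 190, 199, 76.8 and 212 CPM in control, 190, 127, 148 and 194 CPM in TFAM o/e, 192, 193, 132 and 139 CPM with ATF4 RNAi added, and 190, 156, 201 and 183 CPM in the libraries labelled ATF4 o/e. *Syp* had 1619, 1504, 775 and 1163 CPM in control, 1652, 1133, 1341 and 1425 CPM in TFAM o/e, 1489, 1447, 1160 and 1083 CPM with ATF4 RNAi added, and 1592, 1314, 1786 and 1416 CPM in the libraries labelled ATF4 o/e. Both were lowest in control replicate 3, and in TFAM o/e both were lowest in replicate 2. Control replicate 4 was the exception, with the highest *Imp* of all libraries beside a *Syp* below that of control replicates 1 and 2.

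The log2 fold changes of *Imp* were -0.04, 0.10, -0.01 and -0.06 in the order of the comparisons above, and those of *Syp* 0.13, 0.26, -0.10 and 0.02. Standard errors were between 0.18 and 0.30 for *Imp* and between 0.15 and 0.24 for *Syp*. Without control replicate 3, *Imp* had -0.28 in TFAM o/e, -0.13 in the libraries labelled ATF4 o/e and -0.29 in the knockdown against control, and *Syp* had -0.04, 0.10 and -0.14. With the length slope as a covariate, *Imp* had -0.23, -0.21, 0.10 and -0.12 and *Syp* -0.01, 0.01, -0.02 and -0.03, none past the test.

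**Figure D4:**
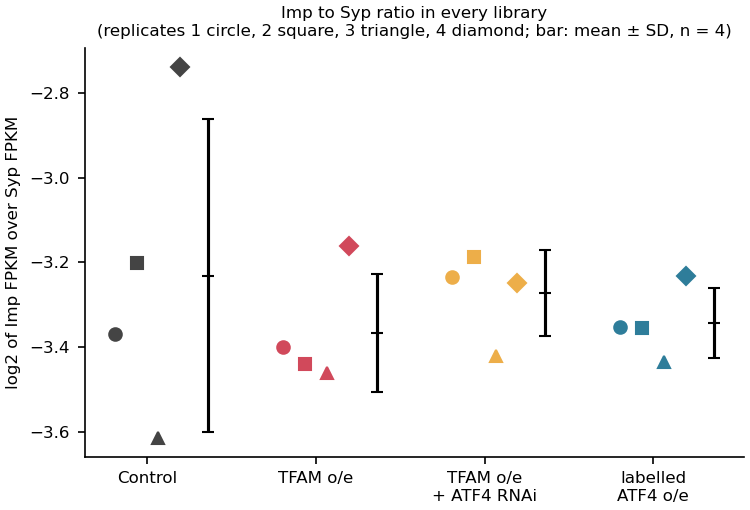
Log2 ratio of *Imp* to *Syp* FPKM in each library, with the mean ± SD (n = 4) beside each genotype and an axis that does not include 0. Control spans the widest range, from -3.62 in replicate 3 to -2.74 in replicate 4, and the other 12 libraries lie between -3.46 and -3.16.

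In neuroblasts the balance of Imp and Syp marks temporal age. In whole CNSs the ratio of their RNAs also takes in neurons, and no scaling between libraries affects it. Per kilobase, *Syp* exceeded *Imp* in all 16 libraries, by 6.67-fold in control replicate 4, 12.3-fold in control replicate 3 and 8.94-fold to 11.02-fold in the others. The log2 ratio was -3.23 ± 0.37 in control, -3.37 ± 0.14 in TFAM o/e, -3.27 ± 0.10 with ATF4 RNAi added and -3.34 ± 0.08 in the libraries labelled ATF4 o/e (SD, n = 4 each). The control range covered that of every other genotype.

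None of 4 comparisons of the ratio found a difference. TFAM o/e minus control was -0.14 (exact permutation test, two-sided, p = 0.571), and the libraries labelled ATF4 o/e minus control -0.11 (exact permutation test, p = 0.686). The knockdown minus TFAM o/e was 0.09 (exact permutation test, p = 0.400), and the knockdown minus control -0.04 (exact permutation test, p = 0.8286). After Benjamini-Hochberg adjustment over the 4, p was 0.8286 for each in the exact permutation test, whose smallest possible value was 0.0286 with 4 libraries against 4. Without control replicate 4, the differences from control were 0.03 in TFAM o/e, 0.05 in the libraries labelled ATF4 o/e and 0.12 in the knockdown, so that the direction of all 3 rested on that library.

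The genes whose pattern over the 16 libraries was most like that of a neuroblast gene were found by the root mean square difference of log2 CPM, each gene centred on its own mean, among 8682 genes. For *Syp* the nearest was *elav*, the pan-neuronal RNA-binding protein, at 0.04, followed by *PlexB*. *elav* had between 480 CPM in control replicate 3 and 1146 CPM in replicate 3 labelled ATF4 o/e, the same lowest and highest libraries as *Syp*. For *Imp* the nearest was lncRNA:cherub at 0.09, a long noncoding RNA known from type II neuroblasts and their tumours, followed by *Syx1A*.

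lncRNA:cherub lies on 3R from 11247631 to 11256123, and it had 3595, 3327, 1306 and 3352 CPM in control, so that control replicate 4 stood with replicates 1 and 2 as it did for *Imp*. After the dependence on the length slope was removed from every gene, a setting chosen after seeing the data, lncRNA:cherub ranked 3 for *Imp* and *elav* 4 for *Syp*. The nearest were then CG42613 and *Frq2* for *Imp*, and *Zir* and *Eph* for *Syp*. Both lncRNA:cherub, with 8398 bp of exons, and *elav*, with 10715 bp, are long like *Imp* and *Syp*. Before that removal, the nearest were *Rbp6* and *heca* for *pros*, *nmo* and CG2865 for *brat*, and *rump* and *Chro* for *insc*. They were *stc* and *Ent2* for *mira*, *Wbp2* and *wek* for *wor*, and *flw* and *Baldspot* for *ase*. After it, they were *unc-13* and *jim* for *pros*, CG30423 and *kuz* for *brat*, and *Cand1* and *woc* for *insc*. For *mira* they were then *Rrp6* and *Rat1*, for *ase* *Pef* and *Cenp-C*, and for *wor* *Wbp2* and *Odj*. Of the genes named for these members, only *Wbp2* was kept.

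Other genes of the same pathways were not called either. In each comparison 0.299% to 0.765% of all genes tested were called, and 4.34% to 8.91% had an unadjusted p under 0.05. Counts of 0 in lists this short therefore do not set these pathways apart from other genes. Of 13 genes of asymmetric division, such as *baz*, *pins* and *numb*, 0 were called in either direction in any comparison in edgeR's test, and 0 had an unadjusted p under 0.05. Their median log2 fold change was 0.06 between control and TFAM o/e and -0.07 between TFAM o/e and the knockdown. Of 13 genes of type II lineages and self-renewal, such as *pnt*, *erm* and *N*, 0 were called and 0 had an unadjusted p under 0.05.

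Of 15 genes of the temporal series, such as *chinmo*, *br* and *Eip93F*, 14 passed the filter on low counts and 0 were called. The exception was *lin-28*, which had at most 0.199 CPM in any library. The largest log2 fold change of the list between control and the libraries labelled ATF4 o/e was 0.65. Of 12 genes of the cell cycle, 0 were called, and 1, *Mcm5*, had an unadjusted p under 0.05, between TFAM o/e and the knockdown. In that comparison 5.81% of all genes tested had one. The summed level of the 12 cell cycle genes was between 1986 and 2335 CPM in control, and the other genotypes lay within this range, between 2088 and 2301 CPM.

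Of 12 genes of ganglion mother cells and neuronal differentiation, 0 were called. Between control and the libraries labelled ATF4 o/e, 3 had an unadjusted p under 0.05, where 8.91% of all genes tested did, namely *tap*, *l(1)sc* and *brp*, of which *tap* (a factor of neuronal differentiation) differed by 0.32 on the log2 scale (SE 0.10, adjusted p = 0.351 in edgeR). Between TFAM o/e and the knockdown *tap* had 0.31 (SE 0.09, adjusted p = 0.291 in edgeR). The sign was thus the same where ATF4 was labelled overexpressed and where it was knocked down. Between control and TFAM o/e *tap* had 0.06 (SE 0.11, adjusted p = 0.883 in edgeR). This gene was picked with these values in view. Against control, *tap* in the knockdown had 0.36 (SE 0.10, adjusted p = 0.384 in edgeR). *l(1)sc* had -0.52 in the libraries labelled ATF4 o/e against control and 0.30 in the knockdown against TFAM o/e (adjusted p = 0.469 and 0.808 in edgeR). Of 10 genes of the response to ecdysone, the steroid that times the end of larval life, 0 were called. Their median log2 fold change was 0.23 between control and TFAM o/e, 0.25 between control and the libraries labelled ATF4 o/e, -0.19 between TFAM o/e and the knockdown and -0.02 between control and the knockdown. Over all genes tested the medians were -0.01, -0.02, 0.00 and -0.02. Of the ecdysone genes, *ImpE1* and *Eip78C* had an unadjusted p under 0.05 between TFAM o/e and the knockdown, where 5.81% of all genes tested did. Their log2 fold changes were -0.79 and -0.58 (adjusted p = 0.580 and 0.856 in edgeR).

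The tissue showed the defining markers of a CNS, with small and uneven amounts of others. The 5 neuronal markers summed to between 1276 and 2788 CPM, and none was at 0. The 5 glial markers, none of them at 0, summed to between 1115 and 1880 CPM in control, 887 and 1266 CPM in TFAM o/e, 1129 and 1286 CPM with ATF4 RNAi added, and 931 and 1180 CPM in the libraries labelled ATF4 o/e. Between control and TFAM o/e the log2 fold changes of all 5 were below 0 (median -0.45) and 0 were called. They were uneven, with -0.79 for *alrm*, -0.80 for *Gs2*, -0.45 for *wrapper*, -0.16 for *moody* and -0.01 for *repo*. An unadjusted p under 0.05 was found for 2 of the 5, where 4.34% of all genes tested had one. Against control, 4 of the 5 were also lower in the libraries labelled ATF4 o/e (median -0.36) and 4 in the knockdown (median -0.30). The exception in both was *repo*, at 0.15 and 0.09. In these comparisons, 3 and 0 of the 5 had an unadjusted p under 0.05, against 8.91% and 4.70% of genes, and 0 were called. The 5 fat body markers summed to between 111 and 465 CPM in control, 53.9 and 95.1 CPM in TFAM o/e, 41.9 and 138 CPM with ATF4 RNAi added, and 62.9 and 240 CPM in the libraries labelled ATF4 o/e. *Lsp1beta* among them fell in TFAM o/e (log2 fold change -1.96, adjusted p = 0.0222 in edgeR), the 1 call among all markers of other tissues. All 5 fat body markers had an unadjusted p under 0.05 there, against 4.34% of all genes tested, with a median log2 fold change of -2.08. The same was true of all 5 in the knockdown against control (median -1.79), against 4.70% of genes. In the libraries labelled ATF4 o/e all 5 were lower than in control (median -1.12), 1 with an unadjusted p under 0.05, against 8.91% of genes. Ring gland markers, of the gland that makes ecdysone, summed to between 4.07 and 106 CPM in control and at most 32.7 CPM elsewhere, and 0 of 4 were called. Muscle markers summed to at most 151 CPM, hemocyte markers to at most 86.7 CPM and salivary gland markers to at most 183 CPM. Those of imaginal discs summed to between 126 and 241 CPM, of which *ap* alone had 87.4 to 178 CPM. Another of them, *nub*, is also in the list of the temporal series. What part of this sum came from discs was not tested. The part of these tissues in the values of the neuroblast genes was not tested.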

How the data were processed

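PolyA libraries were made with a stranded kit from the CNSs of 20 larvae per replicate and read as 75-bp single-end reads. The authors mapped them to dm6 with Bowtie2 2.3.4.2 and counted them per gene with featureCounts 1.6.3. The deposited values are raw counts, 1 column per library and not normalized by the authors. The authors state default settings for the counting, and its annotation and strand setting are not given in the sources used here. Symbols, exon lengths and positions came from the BDGP6 annotation of Ensembl (17560 of 17698 genes matched).

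CPM used TMM factors over all 16 libraries, and FPKM is CPM per kilobase of merged exons. Each pair of genotypes (8 libraries) was compared with the quasi-likelihood test of edgeR 4.0.16 in R 4.3.3, after filterByExpr and TMM, with p-values adjusted over all genes tested. Standard errors were derived from each fold change and its F statistic. At these totals 3 counts are 0.121 to 0.165 CPM, which covers counting error only. The length slope used genes of at least 1 CPM, as log2(CPM + 1). The ratio of *Imp* to *Syp* was compared by exact permutation over 70 assignments.

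The alternatives included DESeq2 1.42.0 (with or without its fold change prior), its size factors, no filter, FPKM of at least 1, no fold threshold, all genotypes in 1 fit, the replicate number as a block, the length slope as a covariate, and each library left out in turn. Leaving out control replicate 3 and TFAM o/e replicate 2 together was chosen after seeing the data. All 9 genes are named in every comparison, with the 2 genes most alike to each except *dpn*, for which they are not reported here. Of the other lists, counts are given, and genes called. *tap*, *ImpE1* and other list genes with an unadjusted p under 0.05 were picked with their values in view. The members and lists were chosen with earlier results of these data known. No promoter sequences were used here.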

Additional observations from a re-analysis of the deposited data

Results flagged for a closer look

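In 3 of 40 sets of 4 replicates, which covered the 9 genes and the *Imp* to *Syp* ratio in 4 genotypes, 1 library stood apart by the gap to its nearest neighbour relative to the whole range. Chance gives about 1 in 20. *ase* had 66.9 CPM in control replicate 3, against 94.0 to 97.7 CPM in the other control libraries. *Imp* had 76.8 CPM in the same library, against 190 to 212 CPM. *brat* had 1339 CPM in TFAM o/e replicate 2, against 1977 to 1997 CPM in the other TFAM o/e libraries. Both are the libraries of lowest length slope, and the part of the slope in these values was not tested.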

How the results depend on the processing

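None of the 9 genes was called in any of the 648 values for the 36 pairs of gene and comparison, 18 alternatives for each, and the smallest adjusted p was 0.191. These values are not all separate, since the alternative without a fold threshold reuses the main fit. Leaving out the 2 libraries of lowest length slope removes both only between control and TFAM o/e, and elsewhere repeats a fit without 1 library. The direction was kept in all alternatives for 19 pairs and changed in at least 1 for 17, none of which had a log2 fold change above 0.13 in size in the main fit. The counts of genes called over the whole table moved more. In the order TFAM o/e against control, the libraries labelled ATF4 o/e against control, the knockdown against TFAM o/e and the knockdown against control, they were 28, 72, 52 and 53. They were 121, 209, 165 and 132 with DESeq2 without a prior, 119, 210, 151 and 127 with its prior, and 100, 173, 148 and 180 with the length slope as a covariate. With all genotypes in 1 fit they were 92, 147 and 94 for the 3 comparisons with control. The replicate numbers did not pair the libraries throughout. Deviations of libraries with the same number correlated above 0.1 for 2, 1, 1 and 3 of 4 numbers. Number 1 did so in all 4 comparisons (0.51, 0.56, 0.61 and 0.58), whereas number 2 had -0.58 between control and TFAM o/e. With the replicate number as a block the counts were 9, 21, 21 and 36.

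Leaving out 1 library at a time gave 17 to 26, 29 to 131, 27 to 71 and 31 to 68 genes. Against control, TFAM o/e had 17 without its replicate 1 or 3. The libraries labelled ATF4 o/e had 131 without control replicate 3, 39 without control replicate 2, 37 without control replicate 4, and 30, 30, 29 and 30 without their own replicates 1 to 4. The knockdown against TFAM o/e had 34 without TFAM o/e replicate 1 and 31, 27 and 31 without knockdown replicates 2, 3 and 4. The knockdown against control had 31 without control replicate 1, 32 without control replicate 2, and 33, 34 and 31 without knockdown replicates 1, 3 and 4.

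The changes of direction were in pairs whose log2 fold change in the main fit was small, but alternative values of these pairs were not all small. That of *Imp* in the knockdown against control reached -0.29. With the length slope as a covariate, TFAM o/e minus control was -0.055 for *ase*, -0.028 for *insc* and -0.012 for *Syp*, the libraries labelled ATF4 o/e minus control -0.10 for *ase*, -0.063 for *insc* and -0.21 for *Imp*, the knockdown minus TFAM o/e 0.031 for *ase*, 0.035 for *insc*, 0.085 for *pros* and 0.10 for *Imp*, and the knockdown minus control -0.031 for *ase*, -0.0023 for *brat* and -0.035 for *Syp*. Without control replicate 3 and TFAM o/e replicate 2, chosen after seeing the data, the values were -0.11 for *dpn* and -0.052 for *ase* in TFAM o/e, -0.072 for *ase*, -0.016 for *insc* and -0.13 for *Imp* in the libraries labelled ATF4 o/e, and -0.091 for *ase*, -0.047 for *insc*, -0.15 for *brat* and -0.14 for *Syp* in the knockdown, all against control. With the replicate block, *Imp* was 0.033 in TFAM o/e and 0.019 in the knockdown against control, and *insc* 0.0013 in the knockdown against TFAM o/e. Without a filter on low counts, the last comparison gave 0.0019 for *ase* and 0.0030 for *insc*.

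Leaving out 1 library at a time, TFAM o/e minus control ran from -0.073 to 0.15 for *dpn*, -0.083 to 0.076 for *ase*, -0.040 to 0.14 for *insc*, -0.28 to 0.091 for *Imp* and -0.036 to 0.28 for *Syp*. The libraries labelled ATF4 o/e minus control ran from -0.072 to 0.088 for *ase*, -0.016 to 0.16 for *insc* and -0.13 to 0.23 for *Imp*. The knockdown minus TFAM o/e ran from -0.039 to 0.069 for *ase*, -0.054 to 0.044 for *insc*, -0.19 to 0.072 for *pros* and -0.11 to 0.089 for *Imp*. The knockdown minus control ran from -0.091 to 0.078 for *ase*, -0.047 to 0.13 for *insc*, -0.15 to 0.25 for *brat*, -0.29 to 0.077 for *Imp* and -0.14 to 0.17 for *Syp*. The log2 ratio of *Imp* to *Syp* ran from -0.26 to 0.030, -0.24 to 0.052 and -0.17 to 0.12 in TFAM o/e, the libraries labelled ATF4 o/e and the knockdown against control. It kept its direction on a linear scale, with the replicate block and after correction by the length slope. The cause of these changes was not tested. Depth limits *dpn* most, at 201 to 362 counts per library.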
